A study of Caenorhabditis elegans with 2 samples.

Results

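The unc genes of Caenorhabditis elegans are named after the uncoordinated movement of their mutants. All protein-coding genes whose name begins with unc- in the Ensembl annotation of WBcel235 were taken, apart from unc-6, unc-34, unc-40, unc-54 and unc-86, which gave 89 of the 19973 protein-coding genes on the nuclear chromosomes. The set was chosen by name, and it was put forward with its promoter peak counts in the same lists already known. Its counts and signal values are therefore descriptions without a test. From known function, 20 genes were placed in muscle, 24 at the synapse, 16 in axon growth and transport, 10 among ion channels and gap junctions and 11 among regulators of gene expression. A further 6 had another role, and unc-77 and unc-132 were given none.

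Chromatin immunoprecipitation followed by sequencing (ChIP-seq) had been done with an antibody against GFP on whole L4 larvae of strain RW12181, aged 49 hours. In this strain a TY1, EGFP and 3xFLAG tag was inserted by CRISPR at egl-43 on chromosome II, and the larvae had been synchronised by bleaching and starvation as L1 larvae. The 2 samples were biological replicates 1 and 2 of this 1 group, both with the tag, and no untagged worms or control library were analysed here. Peaks from whole larvae do not say in which cells a site was bound, and read depth is unknown because the peak lists hold no read counts.

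EGL-43, the tagged protein, has zinc fingers like those of the mammalian EVI1 factor and is best known in the worm for its part in anchor cell invasion and in the development of neurons. Worm movement needs body wall muscle, which pulls on the cuticle through integrin attachments, and motor neurons, which drive it by releasing acetylcholine or GABA. Mutations at any step of that chain, from axon growth to vesicle fusion to the contractile filaments, can give an Unc worm, so the name groups genes by phenotype and not by shared control.

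The data were 8 lists of peaks on the ce11 assembly (WBcel235). The series list for both replicates together held 3146 peaks that passed an irreproducible discovery rate (IDR) of 0.01, which corresponds to a score of 830 out of 1000, and a conservative version of it held 3024. Replicate 1 had 1532 peaks past the threshold and replicate 2 had 1621. Each of these lists comes with a ranked list of 64499 to 69945 peaks that has no such threshold. The signal value of a peak is the authors' own and was compared only within a list. Promoters were taken as the 1000 bp before and the 500 bp after any transcription start site (TSS) of a gene, and a gene was counted when the summit of a peak lay in its promoter.

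The sequences around 6 of the summits are shown first, because they are the highest-signal promoter peaks outside untranslated regions that could be printed here. Of the 23 windows of the set 7 hold a searched motif, and 3 of those 7 are among the 6 shown. Each is the 101 bases centred on the summit, read 5′ to 3′ on the plus strand of ce11. Capitals mark a GAGAGA repeat (TCTCTC when it lies on the minus strand) at unc-115 and unc-112, and at unc-58 the GGTTCGA of the internal promoter of tRNA genes. The windows are X:10146758-10146858 for unc-115, X:10132661-10132761 for unc-58, II:4701694-4701794 for unc-85, V:1474738-1474838 for unc-60, V:14697018-14697118 for unc-112 and V:6880829-6880929 for unc-70.
unc-115: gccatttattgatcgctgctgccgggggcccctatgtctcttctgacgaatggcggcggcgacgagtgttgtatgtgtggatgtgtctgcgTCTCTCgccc
unc-58: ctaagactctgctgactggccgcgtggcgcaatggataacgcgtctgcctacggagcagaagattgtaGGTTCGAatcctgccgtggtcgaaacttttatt
unc-85: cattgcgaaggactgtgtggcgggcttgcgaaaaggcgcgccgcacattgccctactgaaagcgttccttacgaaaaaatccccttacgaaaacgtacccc
unc-60: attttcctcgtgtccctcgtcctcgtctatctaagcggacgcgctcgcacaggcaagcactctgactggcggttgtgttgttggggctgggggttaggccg
unc-112: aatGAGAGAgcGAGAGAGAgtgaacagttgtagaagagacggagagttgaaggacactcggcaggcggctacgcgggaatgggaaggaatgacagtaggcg
unc-70: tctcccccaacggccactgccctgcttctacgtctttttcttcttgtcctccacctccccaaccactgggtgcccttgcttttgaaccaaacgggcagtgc
All 6 are rich in G and C, at 52.5% to 60.4%, and none of the 4 motifs searched was in all of them.

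In the series list, 19 of the 89 unc genes had a promoter summit, which is 21.3% beside 7.57% of all protein-coding genes. They were unc-7, unc-11, unc-15, unc-25, unc-31, unc-33, unc-37, unc-43, unc-44, unc-58, unc-60, unc-62, unc-70, unc-76, unc-85, unc-108, unc-112, unc-115 and unc-116. The counts by role were 3 of 20 muscle genes (15.0%), 5 of 24 synapse genes (20.8%), 6 of 16 axon genes (37.5%), 2 of 10 channel genes (20.0%) and 3 of 11 regulators (27.3%). None of the 6 genes with another role and neither gene without a role was among them. The 19 genes had 23 promoter peaks, since unc-15, unc-33, unc-62 and unc-108 had more than 1.

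**Figure D1:**
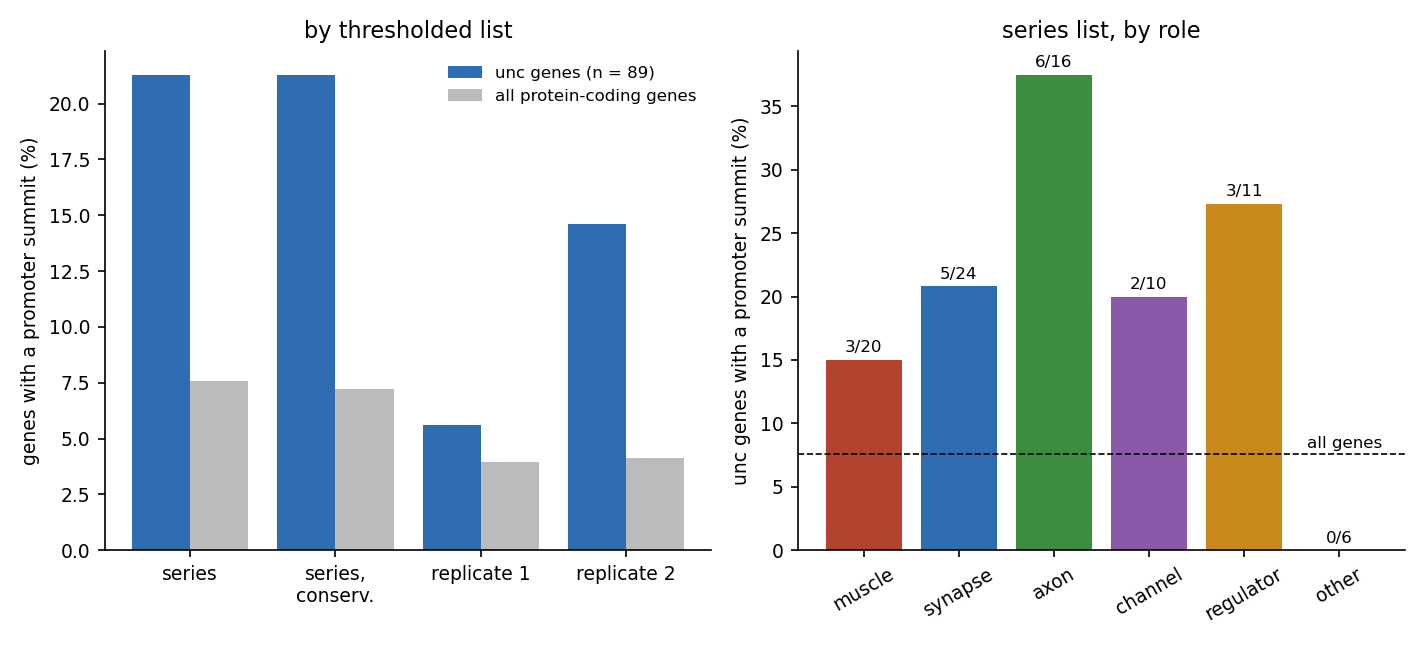
Share of genes (%) with a promoter summit: left, the 89 unc genes (blue) and all protein-coding genes (grey) in the 4 thresholded lists; right, the unc genes of each role in the series list, with counts above the bars and a dashed line at the 7.57% of all genes. The unc genes stand above all genes in each list, by the smallest margin in replicate 1 (5.62% beside 3.94%), and no role has more than 24 genes.

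The number of TSSs sets how much sequence a gene's promoters cover, and the unc genes had a median of 3.0 TSSs beside 1.0 for all genes. Of the 34 unc genes with 1 TSS, 5 had a promoter summit, which is 14.7% beside 5.83% of all genes with 1 TSS. Among genes with 2 TSSs the count was 2 of 8 unc genes (25.0%) beside 9.24%. With 3 or more TSSs it was 12 of 47 (25.5%) beside 17.8%, and in this class the unc genes had a median of 5.0 TSSs against 3.0 for all its genes. The unc genes were also longer, with a median of 6594 bp against 2027 bp, and the 19 with a promoter summit had a median of 7344 bp against 6482 bp for the other 70. The part of length and TSS number in the counts beyond these classes was not tested.

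By signal the 19 genes sat near the middle of the series list. Their highest-signal promoter peaks ranged from 110 to 346 with a median of 133, beside a median of 140 over the list and 142 over its peaks in any promoter. There were 8 at or above the list median and 11 below it. Of the 19 summits, 13 lay upstream and 6 downstream of the nearest TSS of the gene, and 8 lay within 200 bp of it. The promoter window itself takes in 1000 bp upstream and 500 bp downstream, and summit positions were not counted over all genes. At 18 of the 19 genes the summit was in the promoter of no other protein-coding gene.

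**Figure D2:**
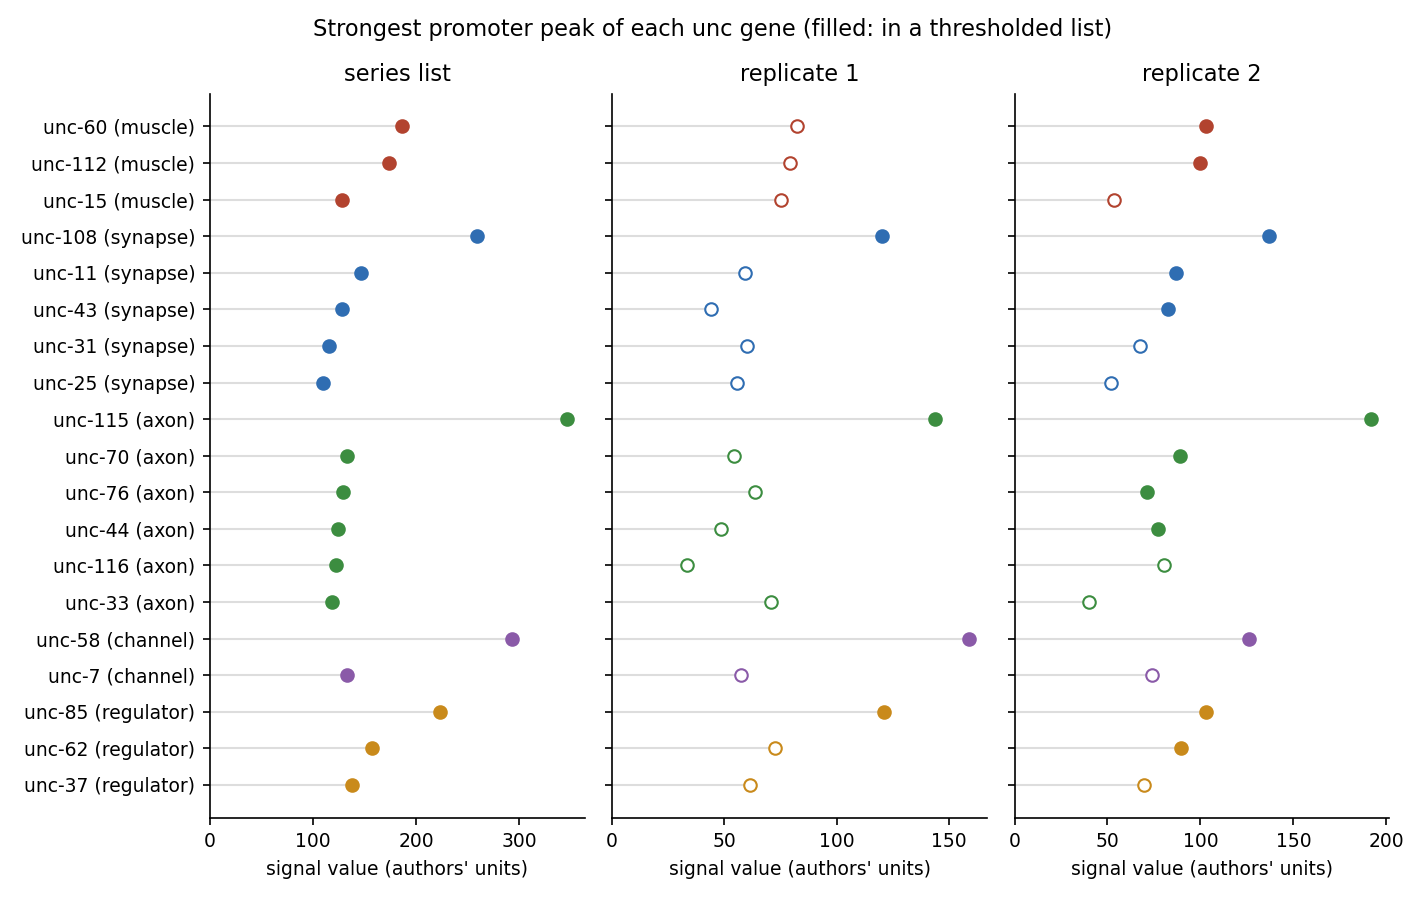
Signal value (authors' units, a separate scale per panel) of the highest-signal promoter peak of each of the 19 unc genes in the series list, and of the peaks that overlap it in the ranked lists of replicates 1 and 2; filled points passed the threshold of that list, colours give the role. In replicate 1, 4 of the points are filled (unc-58, unc-85, unc-108 and unc-115), and in replicate 2 the filled point of unc-44 is a peak whose summit lay just outside the promoter.

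Muscle genes with a promoter summit were unc-60, unc-112 and unc-15. For unc-60, which encodes cofilin, a protein that severs actin filaments, the peak at V:1474623-1474952 had a signal of 186 in the series list (rank 818 of 3146) and a summit 298 bp upstream of the TSS. The same summit lay 298 bp upstream of a neighbouring gene, F53E2.2, so the peak cannot be given to 1 of the pair. The overlapping ranked peaks at unc-60 had a signal of 82.3 and an IDR of 0.0573 in replicate 1, and of 103 and 0.00139 in replicate 2, so it passed in replicate 2 alone. The gene unc-112 encodes kindlin, which links integrin to the muscle attachment, and its peak at V:14696903-14697232 lay 414 bp upstream with a signal of 174 (rank 939). It too passed in replicate 2, with a signal of 100 and an IDR of 0.00169, and not in replicate 1, with 79.4 and 0.014.

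For unc-15, which encodes paramyosin, the core of the thick filaments, a signal of 128 lay 60 bp downstream of a TSS in a 5' UTR, and another of 123 lay 432 bp downstream of a different TSS in a coding exon. Neither peak passed in a replicate list, where the first had signals of 75.4 in replicate 1 and 53.3 in replicate 2 with IDRs of 0.0369 and 0.0342. The other 17 muscle genes, among them unc-22 (twitchin), unc-27 (troponin I), unc-45 (the myosin chaperone) and unc-89 (obscurin), had no promoter summit in the series list.

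Among promoter peaks of synapse genes, that of unc-108 had the highest signal. It encodes RAB-2, a small GTPase of dense core vesicle maturation, and had a promoter peak with a signal of 259 (rank 427) at a summit 469 bp upstream of a TSS, in an annotated intron of the gene. Both replicates passed it, with signals of 120 and 137 in their own lists and IDRs of 0.000727 and 0.00035. A further unc-108 peak, 77 bp upstream of a TSS, had a signal of 208. That peak passed in replicate 1 (107, IDR 0.00103) and not in replicate 2, where its signal was 96.3 and its IDR 0.595. The signal of unc-11, which encodes AP180, a clathrin adaptor that retrieves synaptobrevin, was 147 at 864 bp upstream of the gene. It passed in replicate 2 (86.9, IDR 0.00796) and not in replicate 1 (59.2, IDR 0.062).

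The gene unc-43, which encodes CaM kinase II, has 20 annotated TSSs, and its signal of 128 lay 46 bp downstream of 1 of them in a 5' UTR. Replicate 2 passed this peak (82.4, IDR 0.00486) and replicate 1 did not (44.1, IDR 0.202). In the conservative list unc-43 was counted through a different promoter peak, at IV:10340567-10340896 with a signal of 108. For unc-31, which encodes CAPS, a priming factor of dense core vesicles, the signal was 116 in an intron 158 bp downstream of a TSS, and replicate signals were 60.1 and 67.5 with IDRs of 0.0899 and 0.0198. For unc-25, the glutamate decarboxylase that makes GABA, the signal was 110 at 13 bp upstream of a TSS, and replicate signals were 55.7 and 51.7 with IDRs of 0.0969 and 0.157. These last peaks were the nearest to the threshold, with series IDRs of 0.00976 at unc-31 and 0.0094 at unc-25, and neither passed in a replicate list. No promoter summit in the series list fell at unc-13, unc-18 or unc-64, which encode Munc13, Munc18 and syntaxin of the vesicle fusion machinery. None fell at the acetylcholine receptor genes unc-29, unc-38 and unc-63. With promoters widened to 2000 bp upstream, unc-18 and unc-64 were called, under a setting that called 10.4% of all genes. A summit inside unc-64, in a 3' UTR, had a signal of 116.

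Axon genes held the highest promoter signal of the set, at unc-115. The gene unc-115 encodes abLIM, an actin-binding protein that acts downstream of Rac, and its peak at X:10146773-10146918 had a signal of 346 (rank 218) with a summit 84 bp upstream of the TSS. It passed in both replicates, with a signal of 144 and an IDR of 0.000668 in replicate 1 and of 192 and 7.25e-05 in replicate 2. The other 5 axon genes lay between 118 and 133, all below the list median. This depended on the promoter bounds at unc-70 and unc-33. With the wider promoter the highest signal was 286 at unc-70 and 168 at unc-33, both above that median. The 168 at unc-33 was also reached with peak overlap, and the values of unc-44, unc-76 and unc-116 stayed the same under both settings. For unc-70, which encodes beta spectrin, a protein that keeps axons from breaking, the signal was 133 at 459 bp upstream, and for unc-76, the FEZ kinesin adaptor, it was 129 at 205 bp upstream. Both passed in replicate 2 (89.2 with an IDR of 0.00379 at unc-70, 71.4 with 0.00528 at unc-76) and not in replicate 1 (54.2 with 0.146, and 63.5 with 0.128).

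For unc-44, which encodes ankyrin, the signal of 124 lay in a coding exon 998 bp upstream of an internal TSS, at the edge of the promoter. The replicate 2 peak there (77.0, IDR 0.00599) passed its threshold but had its summit 1002 bp upstream, so unc-44 was not counted in replicate 2. The gene unc-116 encodes the kinesin-1 heavy chain, and its signal was 122 in a coding exon 103 bp downstream of the TSS. Its ranked peaks had a signal of 33.2 and an IDR of 0.648 in replicate 1 and of 80.6 and 0.0403 in replicate 2, and it passed in neither. For unc-33, which encodes CRMP, a microtubule-binding protein that sorts axonal cargo, signals of 118 and 113 lay in coding exons 387 bp and 202 bp downstream of separate TSSs. At the former, replicate 1 had 70.7 with an IDR of 0.0327 and replicate 2 had 39.8 with 0.396, and neither unc-33 peak passed in a replicate list. The netrin receptor unc-5 and the TGF-beta ligand unc-129, which guide motor axons, were not called.

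Channel genes were represented by unc-58 and unc-7. The gene unc-58 encodes a potassium channel of the TWK family, and its peak at X:10132613-10132777 had a signal of 293 (rank 320) at 471 bp downstream of a TSS in an intron. Both replicates passed it, with signals of 159 and 126 and IDRs of 0.000208 and 0.000644. Its summit lay inside a tRNA gene annotated in that intron, with another tRNA gene close by. It was the 1 summit of the 19 with a tRNA, snoRNA, snRNA or miRNA gene within 500 bp (5.26%), and the 1 among all 23 promoter peaks of the set. Such a gene lay beside 158 of the 1399 promoter peaks of any gene (11.3%), where all peaks of a gene count. For unc-7, an innexin of gap junctions, the signal was 133 at 34 bp upstream of a TSS, within the 5' UTR of another transcript, and it passed in neither replicate (57.3 with an IDR of 0.0405, and 74.1 with 0.0117).

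Among the regulators, unc-85 was placed in the class by hand, and the 3 of 11 regulators with a promoter summit include it. It encodes the histone chaperone ASF1, which hands over histones during DNA replication, so its place among regulators of gene expression is a loose one. Its peak at II:4701669-4701818 had a signal of 223 (rank 566) at 325 bp upstream of its single TSS and passed in both replicates, with 121 and 103 and IDRs of 0.000618 and 0.00127. For unc-62, a Meis family homeodomain factor, a signal of 157 lay 19 bp upstream of a TSS and another of 131 lay 126 bp downstream of a different TSS. The former passed in replicate 2 (89.8, IDR 0.00268) and not in replicate 1 (72.6, IDR 0.0256), and the latter passed in neither. For unc-37, which encodes the corepressor Groucho, the signal was 138 at 279 bp upstream, and replicate signals of 61.6 and 69.9 had IDRs of 0.0498 and 0.0369. No summit of the series list fell in the promoters of the motor neuron factors unc-3, unc-4, unc-30 and unc-55. Intronic summits inside unc-3 and unc-55, outside their promoters, had signals of 114 and 118.

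**Figure D3:**
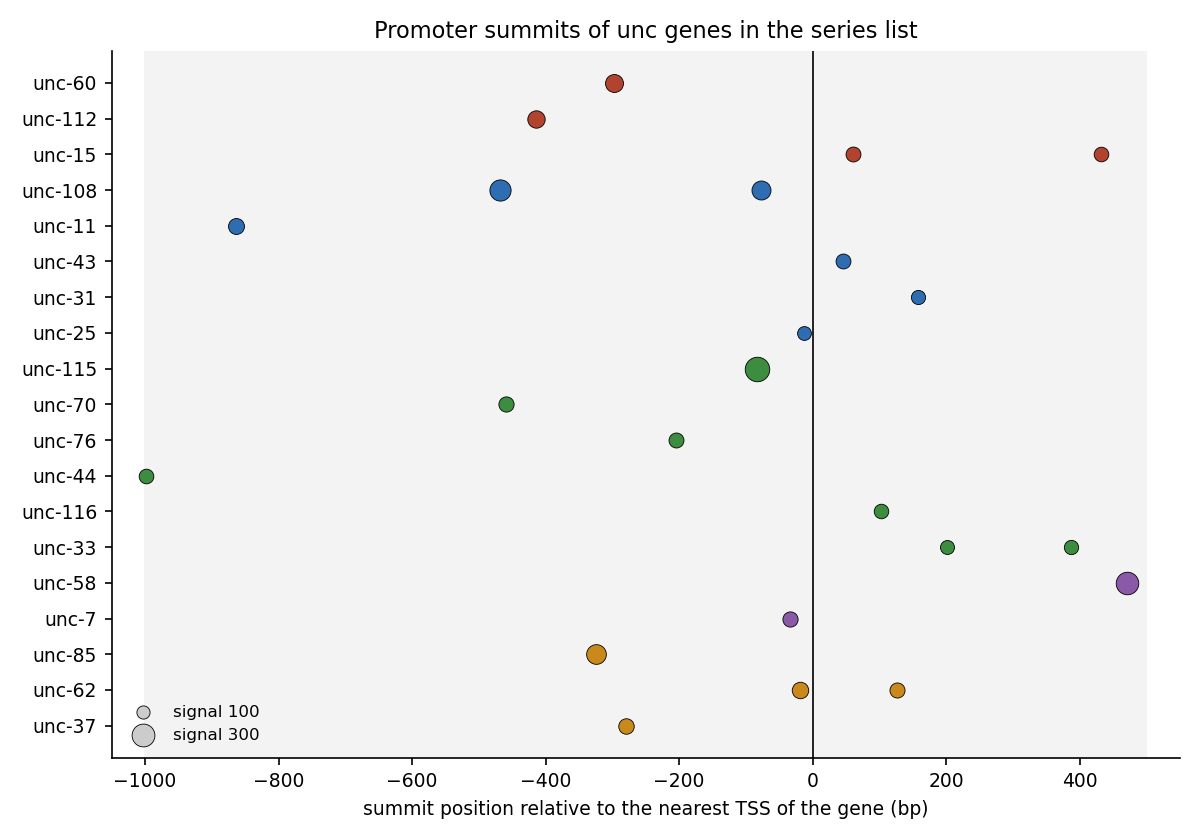
Position of each promoter summit of the 19 unc genes in the series list, in bp from the nearest TSS of the gene (shaded, the promoter from 1000 bp upstream to 500 bp downstream); the area of a point grows with its signal and colours give the role. The points spread over the window with 8 of 19 highest-signal summits within 200 bp of the TSS, and unc-44 (-998) and unc-58 (471) lie near its ends.

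The lists did not name the same unc genes. The conservative list also had 19 (21.3% beside 7.23% of all genes), of which 17 were in the series list. It added unc-2 and unc-23 and lacked unc-25 and unc-116. The overlap of these lists over all genes was not counted. Replicate 1 had 5 unc genes (5.62% beside 3.94%), namely unc-58, unc-84, unc-85, unc-108 and unc-115. Replicate 2 had 13 (14.6% beside 4.11%), namely unc-11, unc-16, unc-43, unc-57, unc-58, unc-60, unc-62, unc-70, unc-76, unc-85, unc-108, unc-112 and unc-115. The 4 in both were unc-58, unc-85, unc-108 and unc-115, beside 537 of the 19973 protein-coding genes. By role, replicate 1 had 0 of 20 muscle, 1 of 24 synapse and 1 of 16 axon genes, and replicate 2 had 2, 4 and 4. Of the 19 genes of the series list, 8 had a promoter summit in neither replicate list (42.1%), beside 546 of the 1511 genes of that list (36.1%).

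Called in a replicate list and not in the series list were unc-16, unc-57 and unc-84, a count not made over all genes. At unc-16, which encodes JIP3, an adaptor between kinesin-1 and its cargo, replicate 2 had a signal of 74.9 with an IDR of 0.00864 at 10 bp downstream of a TSS. The overlapping peak of replicate 1 was at 28.9 with an IDR of 0.636, and that of the series ranked list was at 109 with 0.461. The gene unc-57 encodes endophilin A, which acts in vesicle endocytosis, and was counted in replicate 2 through a summit 928 bp upstream with a signal of 42.3. The main peak beside it had a signal of 140 in the series list, where its summit 1128 bp upstream fell outside the promoter. For unc-84, a SUN protein of nuclear migration, replicate 1 had a signal of 89.6 with an IDR of 0.0039 at 619 bp upstream, and no peak of replicate 2 or of the series ranked list overlapped it.

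Without the threshold most unc genes had a promoter summit, and so did many genes of every kind. The series ranked list had 60 of 89 (67.4% beside 50% of all genes) and the conservative ranked list 59 (66.3% beside 49.3%). The ranked lists of replicates 1 and 2 had 63 (70.8% beside 55.1%) and 62 (69.7% beside 51.5%). By role in the series ranked list the counts were 13 of 20 muscle genes, 15 of 24 synapse genes, 11 of 16 axon genes, 6 of 10 channel genes, 9 of 11 regulators and 5 of 6 with another role. The 41 genes that were ranked and not past the threshold had signals from 2.36 to 135.

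Just outside the threshold lay unc-52, unc-2 and unc-103. For unc-52, which encodes perlecan, the proteoglycan that anchors muscle, the signal was 114 and the IDR 0.0118 at 52 bp upstream of a TSS. For unc-2, the pore subunit of the presynaptic calcium channel CaV2, they were 117 and 0.015 at 203 bp upstream, and for the ERG potassium channel unc-103 they were 105 and 0.0251. The 5 uncalled genes with the highest ranked signal were unc-23 (135), unc-2 (117), unc-52 (114), unc-22 (111) and unc-16 (109). The first of them, unc-23, encodes a BAG domain co-chaperone that keeps muscle attached to the body wall, and its peak at V:8936184-8936513 had an IDR of 0.467 in the series ranked list and 0.00229 in the conservative one. Its replicate signals were 65.5 and 70.0 with IDRs of 0.0221 and 0.0129.

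**Figure D4:**
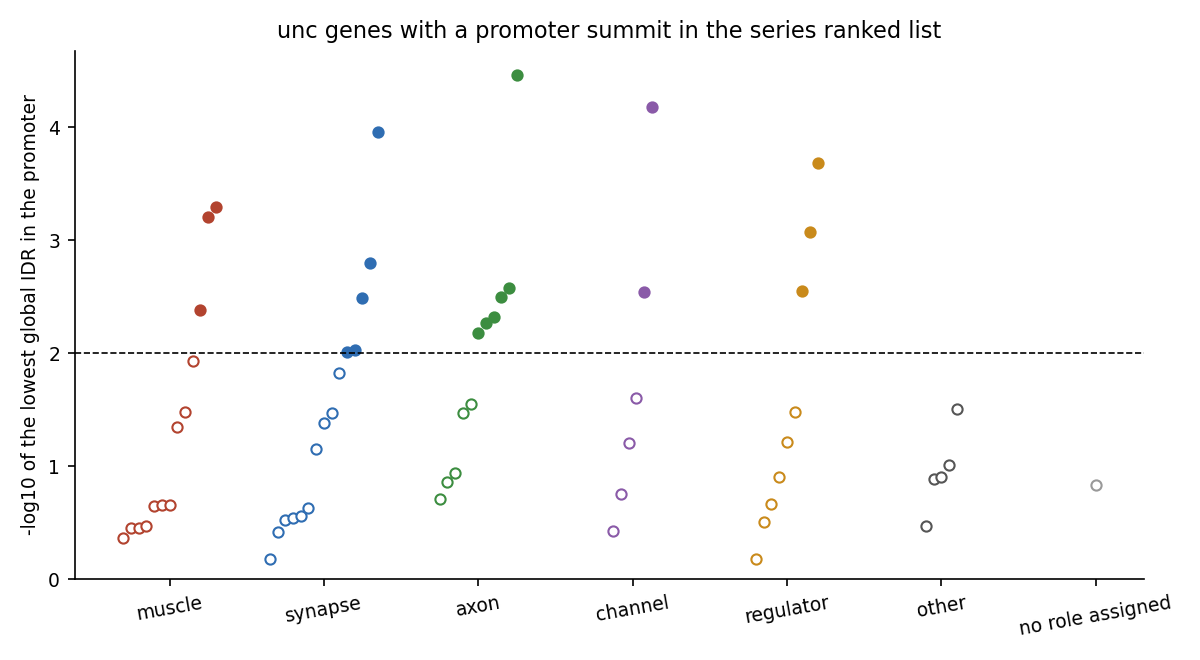
The lowest global IDR among the promoter peaks of each unc gene in the series ranked list, as -log10, by role; filled points are the 19 genes in the thresholded list and the dashed line is an IDR of 0.01. Of the 60 genes, unc-52 (0.0118) and unc-2 (0.015) lie just below the line, and unc-31 (0.00976) and unc-25 (0.0094) just above it.

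In the series ranked list 29 unc genes had no promoter summit. Such a summit was there for 60 of the 89 unc genes, beside 9985 of the 19973 protein-coding genes. In any ranked list 21 unc genes had none, a count not made over all genes. The first 10 of the 29 by number were unc-1, unc-5, unc-8, unc-13, unc-14, unc-17, unc-24, unc-26, unc-27 and unc-29. Of these 10, unc-14 and unc-27 had a promoter summit in a replicate ranked list. At unc-14, which encodes a partner of the UNC-51 kinase in axon growth, replicate 1 had a signal of 90.6 (rank 987) with an IDR of 0.0111 at 79 bp upstream of a TSS, just short of its threshold, and replicate 2 had no promoter summit. At unc-27, which encodes troponin I, the signals were 35.4 and 31.3 in replicates 1 and 2 with IDRs of 0.226 and 0.314. The 10 also include the vesicular acetylcholine transporter unc-17, the priming factor unc-13 and the stomatins unc-1 and unc-24. Among the 10, unc-17 and unc-26 had summits inside the gene in the series list, with highest signals of 129 and 132.

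Summits inside the unc genes and outside their promoters were found in about as many genes as promoter summits. In the series list, 22 of the 89 genes had one (24.7% beside 4.74% of all genes), and 14 of them had no promoter summit. With promoter and inside summits counted together the figure was 33 genes (37.1% beside 11.2%). The unc genes were longer than most, with the medians given above, and the part of length in these counts was not tested. There were 28 such peaks, of which 20 lay in introns, 7 in coding exons and 1 in a 3' UTR. Peaks of 39.3 at unc-43 and 5.38 at unc-3 each overlapped a stronger peak of the same gene and were counted separately. The 28 peaks were in both replicate lists in 7 cases and in neither in 15. The same was not counted for the inside peaks of all genes.

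The signal of 3 inside peaks, at unc-41, unc-104 and unc-70, exceeded that of every promoter peak of the set. At unc-41, which encodes stonin, an endocytic adaptor for synaptotagmin, an intronic peak at V:9970199-9970462 had a signal of 625 (rank 31 of 3146), with 274 in replicate 1 and 349 in replicate 2, and a snoRNA gene lay 57 bp from its summit. At unc-104, the KIF1A kinesin that carries synaptic vesicle precursors, an intronic peak had a signal of 467 (rank 81) with an annotated pseudogene and no tRNA or snoRNA gene within 500 bp of its summit, and another had 237 with its summit inside a tRNA gene. An intron of unc-70 held a peak of 348 at 60 bp from a snoRNA gene, and introns of unc-33, unc-7 and unc-115 held peaks of 254, 203 and 169 within 32 bp of a tRNA gene or inside it. Of the 11 inside peaks at or above the list median signal, 6 had a tRNA or snoRNA gene within 500 bp of the summit, and of the 17 below it none had. The same neighbours were beside 147 of the 452 inside peaks of any gene at or above that median (32.5%) and 27 of the 702 below it (3.85%), and beside 405 of all 1573 peaks at or above it (25.7%) and 66 of the 1573 below it (4.20%). Strong peaks of the whole list thus had such a neighbour more often than weak ones, and the difference between unc genes and other genes was not tested. Next after unc-104 among the inside peaks with no tRNA or snoRNA gene nearby, unc-95, which encodes a LIM domain protein of muscle dense bodies, had a peak of 204 in a coding exon.

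**Figure D5:**
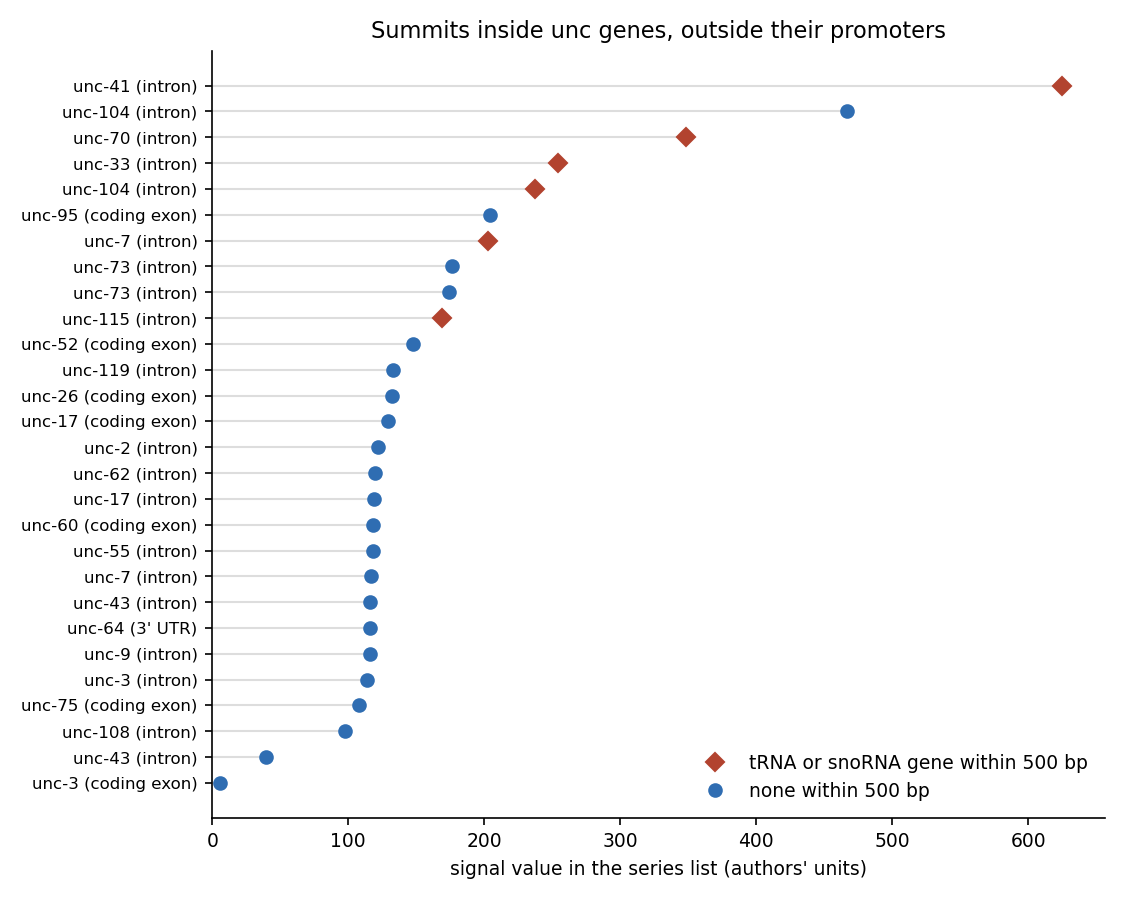
Signal value (authors' units) in the series list of the 28 peaks with a summit inside an unc gene and outside its promoters, with the annotated feature in brackets; red diamonds have a tRNA or snoRNA gene within 500 bp of the summit and blue circles have neither (the upper unc-104 circle has an annotated pseudogene there). The 6 diamonds all lie at 169 or above, led by unc-41 at 625.

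Base composition and short motifs were read in the 101 bases around each summit. The 23 unc promoter peaks had a median of 56.4% G and C (45.5% to 64.4%), beside 52.5% over all peaks of the list and 33.7% in windows centred 100 bp upstream of TSSs. Some of the 23 summits lay in coding exons, in 5' UTRs or in a tRNA gene. The compared windows were not matched for such features, here or for the motifs. GAGAGA on either strand was in 5 of the 23 windows (21.7%), at unc-115, unc-112, unc-62 and both unc-108 peaks, beside 16.4% of all peaks and 9.21% of the TSS windows. The tRNA promoter element GGTTCGA was at unc-58 alone (4.35%, beside 6.55% of all peaks and 0.389% of TSS windows). AGATAA, the core of a motif bound by the first zinc fingers of EVI1, was in 1 window, at unc-43 (4.35%, beside 1.84% and 8.22%), and CAGGTG, an E-box form bound by Snail factors, was in none (beside 3.46% and 3.13%). Overlapping occurrences of a motif counted once per window, and a match is a run of letters and not a measured site.

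Partners of the unc genes in the same processes that carry other names were counted in the same way. Of 25 muscle partners, 1 had a promoter summit in the series list (4%), of 29 synapse partners 3 (10.3%) and of 29 axon partners 3 (10.3%). The muscle partner was pat-12, of the epidermal attachment of muscle, at a signal of 127. The synapse partners were lev-9, which clusters acetylcholine receptors, at 540, the G protein gene egl-30 at 428 and the liprin gene syd-2 at 264. The lev-9 and egl-30 summits were also in the promoters of neighbouring genes. The axon partners were the adhesion gene sax-7 at 151, the Eph receptor gene vab-1 at 136 and the kinase gene dlk-1 at 127. The partner shares lay nearer than those of the unc genes to the 7.57% of all genes, and the difference between the lists was not tested.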

How the data were processed

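The deposited data were peak lists of 2 samples on ce11, per the labels. No control library was analysed here. Aligner and peak caller: not given in the sources used here, like the comparison within each replicate that gave its IDR. Scores are the IDR scores that the authors deposited. The signal value is the authors' own, and the authors also deposited the −log10 of the global IDR of each ranked peak, which was turned back into an IDR. The authors deposited the summit position as another value, an offset in bp. In the ranked lists, 8 columns in each, 32 in all, hold values that no label ties to a replicate and were not used.

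Summits were placed on the 29314 TSSs of Ensembl release 115 with pandas 2.3.3 and numpy 2.4.6 in Python 3.11.15, and figures were drawn with matplotlib 3.10.9. Replicate lists were matched to the series list by an overlap of at least 1 bp. The search for promoter summits was checked on simulated peaks. The unc genes, roles, partner lists, motifs and alternatives were chosen with earlier results of these data known. Roles were written by hand from known function. Genes named were those with a promoter summit in the series list or in a replicate list, the 5 other genes with the highest ranked signal, those just outside the threshold, and up to 10 with no promoter summit in the series ranked list. The other genes named, which are examples without a promoter summit and genes with a summit inside them, were chosen after their values were seen. Of the partners with a summit, the 3 highest in each list were named. Alternatives were the conservative list, higher score and signal thresholds, each replicate list alone, narrower and wider promoters, the nearest TSS only, and peak overlap in place of the summit.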

Additional observations from a re-analysis of the deposited data

How the results depend on the processing

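Of the 89 unc genes, 19 had a promoter summit in the series list, beside 7.57% of all genes. The count was 19 with the conservative list (all genes 7.23%), 13 at the top score of 1000 (5.38%), 16 with narrower promoters (4.89%), 27 with wider ones (10.4%), 19 with the nearest TSS only (6.30%) and 22 with peak overlap (8.42%). It was 8 with peaks at or above the median signal (4.31%) and 5 to 13 with 1 replicate list in place of the series list, 5 being replicate 1 (without replicate 2), where all genes were at 3.94% and 4.11%. The shares of all genes under each setting also apply to the roles. With 1 replicate list, muscle genes numbered 0 to 2, synapse genes 1 to 4, axon genes 1 to 4, and the channel, regulator and other genes 3 in either. Synapse genes fell from 5 to 3 at the top score and 2 at the median signal and rose to 9 with the wider promoter. Axon genes fell from 6 to 3 and 1 under the first pair of those settings. The channel, regulator and other genes went from 5 to 3 at the median signal and 8 with the wider promoter. The median signal of 133 was 135 in the conservative list, 157 at the top score, 205 at the median signal, 147 with the wider promoter, 139 with peak overlap and 89.8 to 121 in the replicate lists, whose scales differ. Called under every setting were 3 genes, unc-85, unc-108 and unc-115, a count not made over all genes. No paired analysis was possible because both samples belong to 1 group. The lists hold no read counts, so signal values carry no error of their own, and with no untagged worms here, background and EGL-43 binding cannot be told apart.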
